A study of Arabidopsis thaliana with 15 samples.

Results

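The 10 genes followed here are the 4 class I KNOX genes of Arabidopsis thaliana (STM, KNAT1, KNAT2 and KNAT6), 4 class II KNOX genes (KNAT3, KNAT4, KNAT5 and KNAT7) and the BELL genes PNY and PNF. They were chosen by locus identifier from the 33602 genes of the deposited count table, with no rule on their counts, though earlier results of these data were known. Col-0 seedlings were grown in the dark at 22 °C for 7 days, and hypocotyl pieces were cut from them, about 100 per sample. The starting explants (0 h, 3 libraries) were sampled at that point. The other explants were kept in continuous light at 17 °C or 27 °C for 4 days on callus-inducing medium (CIM, with 0.1 mg/L kinetin and 0.5 mg/L 2,4 D), and were sampled then (3 libraries per temperature) or after a further 4 days on shoot-inducing medium (SIM, with 0.5 mg/L 2-iP and 0.15 mg/L IAA; 3 libraries per temperature). All 15 libraries are of the same wild-type ecotype. Explants on SIM had all passed through CIM at the same labelled temperature and were older, and the 0 h explants differ from CIM explants in light, age, hormones and temperature together, so the contributions of these cannot be told apart.

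KNOX proteins are homeodomain transcription factors of the TALE group that act as pairs with BELL proteins of the same group, and the BELL partner helps the pair to enter the nucleus and bind DNA. Class I KNOX genes are known for holding shoot meristem cells in an undifferentiated state, in part by raising cytokinin and lowering gibberellin, and are kept off in leaf primordia. Class II KNOX genes are known for promoting differentiation, and some of them act in secondary cell wall formation.

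The regions just upstream of STM, KNAT2, PNY and KNAT7 are shown because these 4 genes carried the largest temperature differences in at least 1 medium. Each sequence is the 250 bases before the outermost annotated start, read 5′ to 3′ on the gene's own strand from the RefSeq TAIR10.1 assembly, whose chromosomes carry the TAIR10 coordinates of the count table. Capitals mark matches on either strand to TGACA, which holds the core that TALE homeodomain proteins bind, and to AGATT, a core that type-B cytokinin response regulators bind. The letters TGTCA and AATCT are the same motifs on the opposite strand.
STM, chr1:23062064-23062313, minus strand: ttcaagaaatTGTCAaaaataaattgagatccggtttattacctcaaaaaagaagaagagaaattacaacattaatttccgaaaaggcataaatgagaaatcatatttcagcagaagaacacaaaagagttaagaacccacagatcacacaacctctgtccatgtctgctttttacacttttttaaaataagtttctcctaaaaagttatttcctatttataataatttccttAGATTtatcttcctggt
KNAT2, chr1:26576236-26576485, plus strand: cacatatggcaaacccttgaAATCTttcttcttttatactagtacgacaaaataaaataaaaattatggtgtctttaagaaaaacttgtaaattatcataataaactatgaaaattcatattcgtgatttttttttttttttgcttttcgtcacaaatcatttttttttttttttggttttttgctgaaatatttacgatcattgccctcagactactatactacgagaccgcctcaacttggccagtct
PNY, chr5:395317-395566, plus strand: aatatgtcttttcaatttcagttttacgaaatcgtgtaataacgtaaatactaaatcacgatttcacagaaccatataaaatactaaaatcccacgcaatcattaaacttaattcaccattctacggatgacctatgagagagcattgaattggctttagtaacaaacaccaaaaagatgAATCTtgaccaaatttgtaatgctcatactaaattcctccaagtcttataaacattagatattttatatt
KNAT7, chr1:23336917-23337166, plus strand: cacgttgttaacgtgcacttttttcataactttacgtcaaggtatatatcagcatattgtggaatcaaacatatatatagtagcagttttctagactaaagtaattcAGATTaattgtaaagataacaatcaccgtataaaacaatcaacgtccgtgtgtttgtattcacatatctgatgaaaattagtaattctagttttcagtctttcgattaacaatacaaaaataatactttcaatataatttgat
Counting from -1 at the base before the annotated start, STM had TGACA at -240 and AGATT at -17, KNAT2 had AGATT at -230, PNY at -70 and KNAT7 at -143. Over all 10 genes TGACA occurred in 2 windows, AGATT in 7 and CACGTG, the G-box that light and temperature signalling factors bind, in 1. Of 33322 such windows in the genome, 38.2% held TGACA, 63.2% AGATT and 5.81% CACGTG. The motifs do not overlap one another, and a match is a match of letters only.

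Each library held 3427707 to 4446863 counts, and 22303 to 24396 genes had at least 1 count. Levels are given as CPM, that is, counts relative to library sizes scaled by the TMM method, which makes libraries comparable, and are followed by the SD over libraries. Libraries 1 and 3 of CIM at 27 °C differed by less than the sampling noise and were counted as 1 sample in means and SDs (n = 2, otherwise n = 3). An SD of that group is therefore of 2 values, 1 of them an average of 2 libraries, and can understate the spread over libraries. KNAT5, with 58.8, 54.6 and 51.8 CPM in libraries 1, 2 and 3 of that group, has an SD of 0.462. The binomial test found 0 genes that differed between libraries 1 and 3. It found 1 to 3 genes in 3 pairs of SIM libraries (1 and 2, and 1 and 3, at 27 °C, and 1 and 3 at 17 °C). These were kept separate, so this choice rests on few genes. The mean chi-square per gene, about 1 under sampling noise alone, was 0.732 for the merged pair. It was also below 1 in all other pairs of CIM at 27 °C and of SIM, and 0.720 for SIM libraries 1 and 2 at 27 °C. Agreement below sampling noise is therefore not particular to the merged pair. The main edgeR fit treated all 15 libraries as separate samples. Nothing in the labels says that libraries of a group came from separate cultures, so p-values reflect library-to-library spread, which may be technical. A difference was called when the adjusted p of edgeR's quasi-likelihood test, adjusted by Benjamini and Hochberg over all 20704 genes tested, was under 0.05. Each log2 fold change is given ± its standard error. Of the 10 genes, 9 were tested. PNF had too few counts, and STM passed the filter on low counts through SIM at 27 °C alone. Seed maturation transcripts, from 8 genes, summed to 3782, 14 and 2742 counts in the 0 h libraries 1, 2 and 3 and to at most 3 counts in any other library.

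**Figure D1:**
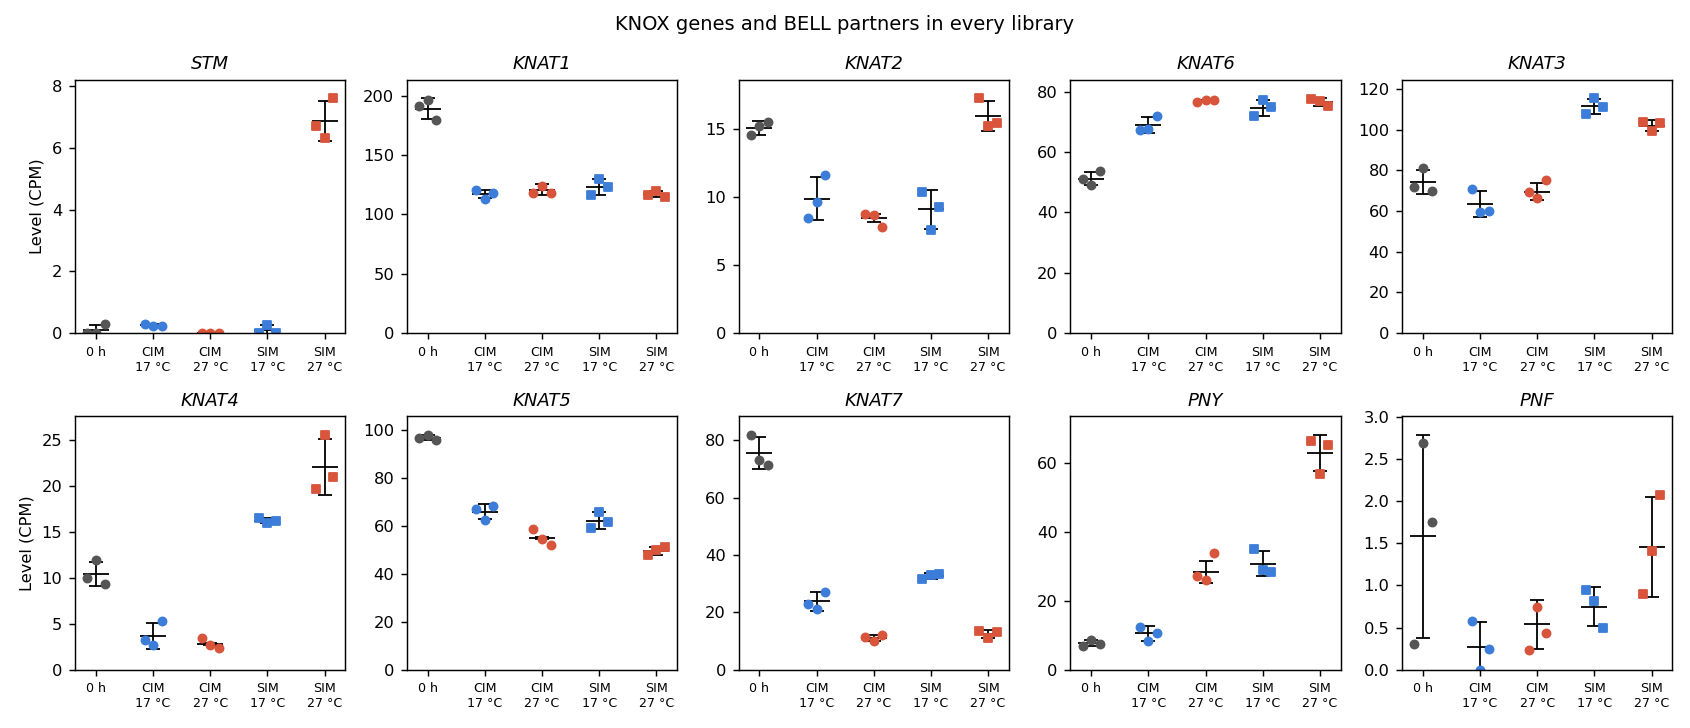
Level of each of the 10 genes (CPM, y axis from 0, a scale of its own per gene) in every library, by group on the x axis. Points are libraries, and the horizontal line and bars are mean ± SD (n = 3; n = 2 for CIM at 27 °C). STM lies above 6 CPM in the 3 libraries of SIM at 27 °C and below 0.3 CPM in the other 12, and PNY and KNAT7 separate by temperature in both media, in opposite directions.

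After CIM, 27 °C exceeded 17 °C in 3 of the 9 tested genes and fell short of it in 2, where 42.6% of all tested genes were called, 21.6% higher and 21% lower. After SIM, 4 were higher, with STM among them, and 2 lower. The call of STM is description only, since it was tested because of SIM at 27 °C, where it is high. Of all tested genes 43.6% were called after SIM, 20.7% higher and 22.9% lower. The shares of genes called are therefore large everywhere, and the sizes below say more than the counts. The median log2 fold change of the 9 was -0.24 after CIM (-0.11 with STM, which had 3 or fewer counts in both groups, left out) and 0.04 after SIM, against 0.02 and 0.00 over all tested genes. Of the 5 calls after CIM, those of KNAT3 and KNAT6 lay near the threshold and were lost under most alternatives. The call after CIM was kept under every alternative for PNY, KNAT7 and KNAT5.

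STM (AT1G62360, chr1:23058582-23061722, minus strand) encodes the class I KNOX protein that keeps the shoot meristem from differentiating. Its counts were 0, 0 and 1 in the 0 h libraries, 1 in each library of CIM at 17 °C, 0 in each of CIM at 27 °C, 0, 1 and 0 on SIM at 17 °C, and 30, 27 and 33 on SIM at 27 °C. Only the 3 libraries of SIM at 27 °C were above 1 count, and their levels of 6.72, 6.33 and 7.60 CPM averaged 6.88 ± 0.653. From the summed counts, STM was 82.7-fold higher on SIM at 27 °C than at 17 °C, with a 95% counting interval of 14.5 to 3303 that reflects the single count at 17 °C. Against CIM at 27 °C, where the 3 libraries had no count and a floor of 3 counts over the group was used, it was at least 29.8-fold higher. No p is given for STM, since it was tested only because of the group in which it is high. Counting intervals and floors cover counting error only.

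Of 12 shoot meristem and organ boundary genes, 10 were tested, and on SIM 7 were higher at 27 °C and 1 was lower (20.7% and 22.9% of all tested genes), with a median log2 fold change of 1.20 against 0.00 over all tested genes. Some of the 7 had few counts outside SIM at 27 °C. CYP78A5 had 9 counts on SIM at 17 °C and 543 at 27 °C, and LSH4 had 8 and 272. Such genes were tested only because of the group in which they are high. The count of 7 and the median include them and are given as description only. Among them CUC1, a boundary factor that acts upstream of STM in the embryo, averaged 34.3 ± 1.22 CPM at 27 °C and 5.24 ± 0.99 CPM at 17 °C. In whole explants, more cells of a type and more RNA per cell cannot be told apart. WUS, the stem cell organiser gene, was at 0 in all CIM and 0 h libraries and averaged 5.30 ± 0.658 CPM on SIM at 17 °C, where STM had 1 count in all, and 14.7 ± 2.41 CPM at 27 °C. The part of cell composition in the STM difference was not tested.

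KNAT1 (AT4G08150, chr4:5147700-5150966, minus strand), also called BREVIPEDICELLUS and known for shaping the inflorescence stem, was the member with the highest level per kilobase of exon in all 5 groups. It had 191.4, 196.0 and 179.4 CPM in the 0 h libraries and 113.2 to 129.6 CPM in every later library. The 0 h libraries stood above all the others, which overlapped among the 4 later groups. Relative to 0 h it fell by 0.69 ± 0.04 log2 units on CIM at 17 °C and by 0.66 ± 0.04 at 27 °C (edgeR adjusted p = 1.25e-15 and 1.78e-15). Between temperatures the log2 difference was 0.03 ± 0.05 after CIM and -0.07 ± 0.05 after SIM, neither past the test (edgeR adjusted p = 0.657 and 0.278).

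KNAT2 (AT1G70510, chr1:26576486-26582431, plus strand), a class I gene studied mostly in the carpel, followed a course unlike that of KNAT1. Its levels were 14.5, 15.2 and 15.5 CPM at 0 h, 8.43, 9.61 and 11.6 on CIM at 17 °C, and 8.76, 8.69 and 7.80 on CIM at 27 °C. On SIM they were 10.4, 7.58 and 9.30 CPM at 17 °C and 17.2, 15.2 and 15.4 at 27 °C. Thus the libraries of SIM at 27 °C lay in the range of the 0 h explants or above it, and the other 3 groups overlapped at a lower level. On SIM KNAT2 was higher at 27 °C by 0.80 ± 0.15 log2 units (edgeR adjusted p = 4.88e-05), whereas after CIM the difference was -0.24 ± 0.17 (0.309, not called). The temperature effect differed between the media by 1.05 ± 0.23 log2 units (edgeR adjusted p = 0.000922). From CIM to SIM KNAT2 rose by 0.93 ± 0.15 at 27 °C (edgeR adjusted p = 3.97e-06), and at 17 °C the difference was -0.12 ± 0.17 (0.632).

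KNAT6 (AT1G23380, chr1:8297291-8302651, minus strand), which acts with STM in the embryonic meristem and boundaries, had higher levels in all 4 cultured groups than before culture. Its levels of 50.9, 49.1 and 53.5 CPM at 0 h lay below those of all 12 cultured libraries, which ran from 67.2 to 77.5 CPM. The rise on CIM was 0.43 ± 0.06 log2 units at 17 °C and 0.59 ± 0.06 at 27 °C (edgeR adjusted p = 2.31e-07 and 2.79e-11). After CIM it was 0.16 ± 0.05 higher at 27 °C (edgeR adjusted p = 0.0474). That call was lost when any 1 of the 6 CIM libraries was left out, with adjusted p between 0.0668 and 0.164. On SIM the temperature difference of 0.04 ± 0.05 was not called (0.675).

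Summed per kilobase of exon, so that genes can be added, the 4 class I genes came to 152.4 ± 2.82 CPM per kb at 0 h, 122.4 ± 3.56 and 129.2 ± 2.83 on CIM at 17 and 27 °C, and 129.2 ± 4.66 and 137.1 ± 1.92 on SIM. KNAT1 and KNAT6 made up most of this in each group. Where STM was detected most, on SIM at 27 °C, it reached 5.05 ± 0.479 CPM per kb, which was 1.84% of the summed level of the 10 genes.

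**Figure D2:**
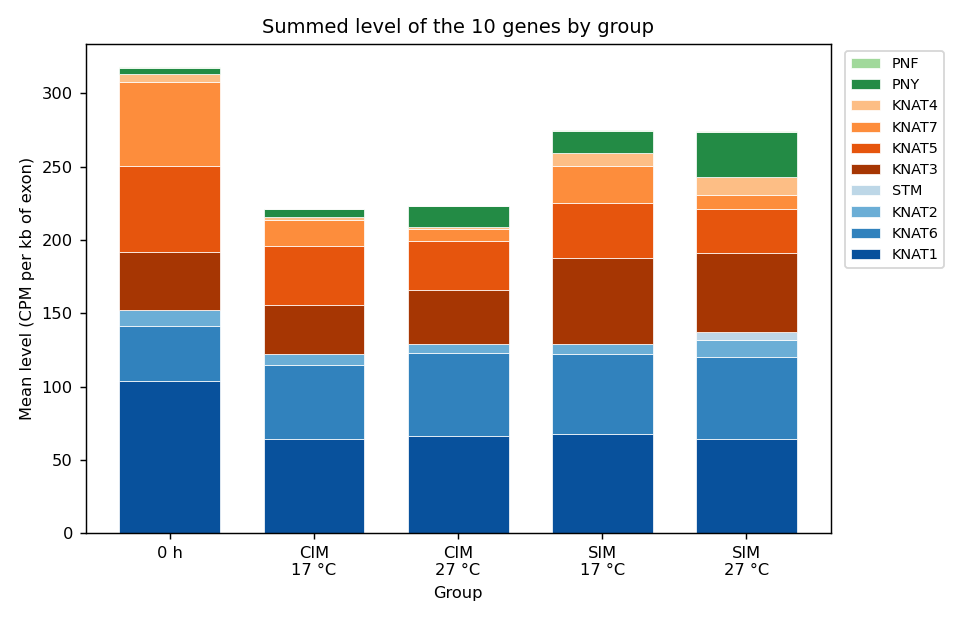
Mean level of each gene divided by its exon length (CPM per kb of exon, stacked, y axis from 0) in the 5 groups; class I genes are blue, class II orange and BELL genes green. The class II part is widest at 0 h (160.8 CPM per kb in all) and narrowest on CIM at 27 °C (79.9), and the BELL part, nearly all PNY, is widest on SIM at 27 °C (31.8).

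Among the class II genes, KNAT7 (AT1G62990, chr1:23337365-23340688, plus strand), a regulator of secondary wall deposition in xylem and fibres, had the largest temperature differences. It had 81.8, 73.3 and 71.4 CPM at 0 h. On CIM the levels were 23.0, 21.1 and 27.3 CPM at 17 °C and 11.5, 10.2 and 12.1 at 27 °C, and on SIM 31.7, 33.0 and 33.5 CPM at 17 °C and 13.4, 11.0 and 13.1 at 27 °C. All 17 °C libraries lay above all 27 °C libraries. The gene was lower at 27 °C by 1.07 ± 0.13 log2 units after CIM (-1.07; edgeR adjusted p = 1.66e-08) and by 1.38 ± 0.11 after SIM (-1.38; 5.17e-12). The difference between these effects, -0.31 ± 0.18, was not called (edgeR adjusted p = 0.332). From 0 h to CIM it fell by 1.66 ± 0.08 at 17 °C and by 2.73 ± 0.10 at 27 °C (edgeR adjusted p = 1.96e-18 and 1.07e-22), and from CIM to SIM it rose by 0.46 ± 0.10 at 17 °C (0.000226), with 0.15 ± 0.14 at 27 °C (0.476).

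Genes of secondary wall synthesis around KNAT7 moved the same way. All 9 of 9 were lower at 27 °C in both media, where 21% (CIM) and 22.9% (SIM) of all tested genes were lower, with medians of -0.58 after CIM and -0.39 after SIM against 0.02 and 0.00 over all tested genes. After CIM the xylem laccase gene LAC4 was lower by 0.83 log2 units (-0.83 ± 0.08; edgeR adjusted p = 1.76e-10), and the cellulose synthase genes of the secondary wall, CESA8, CESA4 and CESA7, had -0.50, -0.42 and -0.45. On SIM IRX9, of xylan synthesis, had -0.81 ± 0.09 (edgeR adjusted p = 5.8e-09), and CESA4, CESA8 and CESA7 had -0.38, -0.39 and -0.37. These differences were smaller than those of KNAT7. The share of xylem cells in the explants was not measured, and its part in the KNAT7 difference was not tested.

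KNAT5 (AT4G32040, chr4:15494065-15496356, plus strand), a further class II gene, went down in the same steps by less. Its levels were 96.6, 97.7 and 95.7 CPM at 0 h, 67.2, 62.2 and 68.3 on CIM at 17 °C, 58.8, 54.6 and 51.8 on CIM at 27 °C, 58.8, 65.8 and 61.4 on SIM at 17 °C, and 47.7, 49.7 and 51.1 on SIM at 27 °C. In both media the 27 °C libraries lay below the 17 °C libraries with no overlap. The log2 difference between temperatures was -0.26 ± 0.06 after CIM and -0.32 ± 0.06 after SIM (edgeR adjusted p = 0.00212 and 0.000169).

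KNAT3 (AT5G25220, chr5:8736074-8738584, plus strand) and KNAT4 (AT5G11060, chr5:3510118-3513305, plus strand), closely related class II genes, differed mainly between the media. KNAT4 had 9.99, 11.9 and 9.36 CPM at 0 h, 3.20, 2.64 and 5.31 on CIM at 17 °C, 3.46, 2.73 and 2.38 on CIM at 27 °C, 16.5, 16.0 and 16.2 on SIM at 17 °C, and 19.7, 25.5 and 21.0 on SIM at 27 °C. Both SIM groups lay above 0 h, and 0 h above both CIM groups, whose ranges overlapped. From CIM to SIM it rose by 2.11 ± 0.21 log2 units at 17 °C and by 2.94 ± 0.20 at 27 °C (edgeR adjusted p = 1.86e-10 and 1.74e-14). On SIM it was 0.44 ± 0.14 higher at 27 °C (edgeR adjusted p = 0.00902), a call lost without library 2 at 27 °C (0.32, adjusted p = 0.115). Markers of photosynthetic tissue, from 10 genes, were also highest on SIM at 27 °C. They summed to 804 to 929 counts at 0 h, 506, 642 and 1061 on CIM at 17 °C, 781 to 841 on CIM at 27 °C, 1676 to 1967 on SIM at 17 °C and 2770 to 3018 on SIM at 27 °C. From 0 h to CIM, where KNAT4 fell, 5 of the 10 markers rose and 4 fell at each temperature (edgeR). This was near the shares over all tested genes, of which 37.7% rose and 39.5% fell at 17 °C, and 39.5% and 40.4% at 27 °C. The median log2 fold change of the markers was above 0 at both temperatures. In CIM at 17 °C library 3 was highest in both KNAT4 and these markers. Their part in the KNAT4 differences was not tested.

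KNAT3 had 71.8, 81.0 and 69.9 CPM at 0 h, 70.6, 59.3 and 59.8 on CIM at 17 °C, and 69.4, 66.6 and 75.4 on CIM at 27 °C, groups that overlap. On SIM it had 107.7, 115.3 and 111.1 CPM at 17 °C and 103.5, 99.1 and 103.4 at 27 °C, above every earlier library. The rise from CIM to SIM was 0.82 ± 0.06 log2 units at 17 °C and 0.53 ± 0.06 at 27 °C (edgeR adjusted p = 1.17e-13 and 1.05e-09). After CIM it was 0.17 ± 0.07 higher at 27 °C (edgeR adjusted p = 0.0424), a call lost when the 17 °C library 2 (0.251) or 3 (0.28) or the 27 °C library 1 (0.0887) or 3 (0.366) was left out, and on SIM its difference of -0.12 ± 0.05 was not called (0.0586). The difference between the 2 temperature effects was -0.29 ± 0.08 (edgeR adjusted p = 0.0104), lost without library 2 or 3 of CIM at 17 °C or library 3 at 27 °C (0.0508, 0.0861 and 0.121). Its lower level on CIM at 17 °C than at 0 h, -0.24 ± 0.07 (edgeR adjusted p = 0.00211), was lost without 0 h library 2 (0.0959).

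The sum of the 4 class II genes went from 160.8 ± 5.69 CPM per kb of exon at 0 h to 93.4 ± 5.98 on CIM at 17 °C and 79.9 ± 3.41 at 27 °C, and was 130.1 ± 4.45 on SIM at 17 °C and 105.5 ± 1.42 at 27 °C. The libraries of each temperature did not overlap in either medium, and this sum was lower at 27 °C in both. That of class I was the higher one at 27 °C in both, again with no overlap. On SIM this depended on dividing by exon length. Summed as plain CPM, class I had 198.7 to 214.6 at 17 °C and 212.6 to 218.2 at 27 °C, which overlap. Nor did all its genes move alike on SIM. Per kb, KNAT1 had 67.5 at 17 °C and 64.2 at 27 °C, KNAT6 55.0 and 56.4, KNAT2 6.59 and 11.6, and STM 0.0662 and 5.05.

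PNY (AT5G02030, chr5:395634-399041, plus strand), also called BELLRINGER, is the partner through which STM and KNAT1 act in the inflorescence meristem. Its levels were 6.97, 8.64 and 7.32 CPM at 0 h, 12.5, 8.41 and 10.6 on CIM at 17 °C, and 27.2, 26.1 and 33.8 on CIM at 27 °C. On SIM they were 35.0, 29.0 and 28.4 CPM at 17 °C and 66.3, 56.7 and 65.2 at 27 °C. Thus PNY on CIM at 27 °C overlapped with PNY on SIM at 17 °C, and every library of SIM at 27 °C was above all others. It was higher at 27 °C by 1.49 ± 0.14 log2 units after CIM and by 1.02 ± 0.09 after SIM (edgeR adjusted p = 6.9e-10 and 9.29e-11). The difference between these, -0.46 ± 0.18, was not called (edgeR adjusted p = 0.0674), but passed without library 1 of CIM at 17 °C, library 2 of CIM at 27 °C or library 3 of SIM at 17 °C (0.0322, 0.0403 and 0.0473). From CIM to SIM PNY rose by 1.57 ± 0.14 at 17 °C and 1.10 ± 0.09 at 27 °C (edgeR adjusted p = 1.04e-10 and 6.46e-12). From 0 h to CIM it rose by 1.93 ± 0.16 at 27 °C (edgeR adjusted p = 4.08e-12), and 0.44 ± 0.21 at 17 °C was not called (0.0595), though it passed without 0 h library 2 (0.0396) or library 2 of CIM at 17 °C (0.0146).

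PNF (AT2G27990, chr2:11921433-11924698, minus strand), the close relative of PNY with which it shares functions in the inflorescence, was near the limit of detection. It had 1, 9 and 6 counts at 0 h, 2, 0 and 1 on CIM at 17 °C, 1, 3 and 2 on CIM at 27 °C, 4, 3 and 2 on SIM at 17 °C, and 4, 6 and 9 on SIM at 27 °C. From the summed counts it was 1.94-fold higher on SIM at 27 °C than at 17 °C, with a 95% interval of 0.836 to 4.87 that includes no difference. It was 6.22-fold higher at 0 h than on CIM at 17 °C (1.78 to 33.3) and 3.14-fold higher on SIM than on CIM at 27 °C (1.21 to 9.62). The 0 h value rests on libraries 2 and 3.

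**Figure D3:**
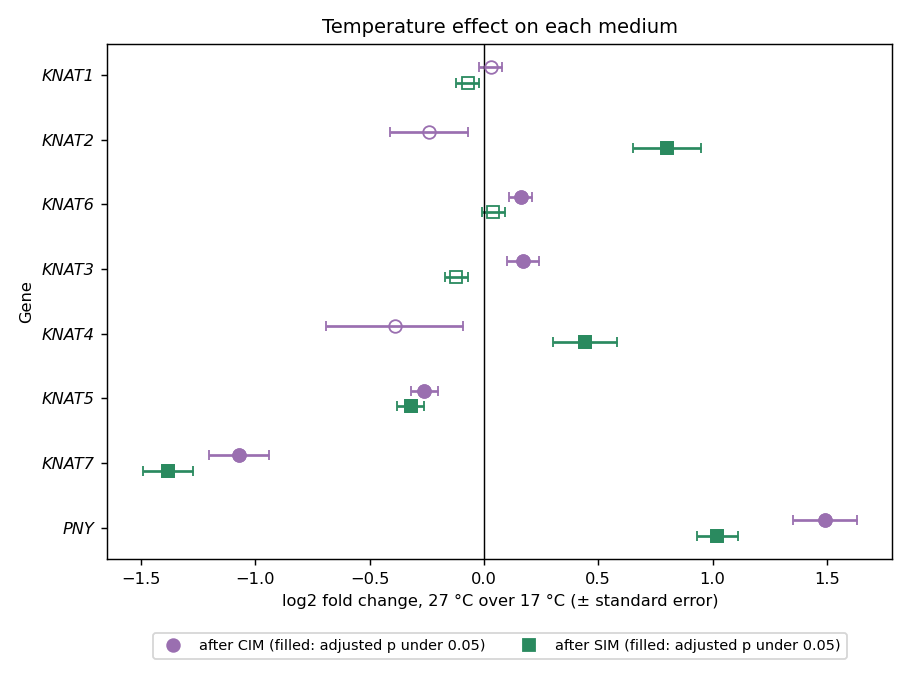
Log2 fold change of 27 °C over 17 °C (x axis, ± standard error) after CIM (circles) and after SIM (squares) for the 8 tested genes other than STM, whose fold rests on near-zero counts. Filled symbols passed the test; PNY lies right of 1 and KNAT7 left of -1 in both media, and KNAT2 is filled only after SIM.

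From 0 h to CIM, 1 of the 9 tested genes rose and 6 fell at 17 °C, and 2 rose and 5 fell at 27 °C. Over all tested genes 77.2% were called at 17 °C (37.7% rose and 39.5% fell) and 79.8% at 27 °C (39.5% rose and 40.4% fell). The 6 that fell at 17 °C were KNAT1, KNAT2 and all 4 class II genes. From CIM to SIM, 4 rose at 17 °C and 5 at 27 °C, with STM among the 5 as description only. At either temperature 0 fell (edgeR, with 0 fallen by DESeq2 as well and none at an unadjusted p under 0.05). Over all tested genes 48.1% were called at 17 °C (24.7% rose and 23.4% fell) and 49.7% at 27 °C (24.9% rose and 24.8% fell). The temperature effect differed between media for 3 of the 9, beside 18.5% of all tested genes called, 8.26% larger on SIM and 10.2% smaller. That of KNAT2 was larger on SIM and that of KNAT3 smaller. STM, also larger on SIM, is counted as description only, since it was tested because of SIM at 27 °C.

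The order of the genes by level per kilobase of exon changed with the medium. KNAT1 was first in every group by exon length, but second to KNAT3 on SIM at both temperatures by the length from start to end of the gene. PNY had rank 8 at 0 h, ranks 7 and 5 on CIM at 17 and 27 °C and ranks 6 and 4 on SIM. PNY made up 1.19% of the summed level of the 10 genes at 0 h, 2.36% and 6.28% on CIM at 17 and 27 °C, and 5.55% and 11.3% on SIM. KNAT7 made up 18.0% at 0 h, 8.16% and 3.74% on CIM at 17 and 27 °C, and 9.03% and 3.46% on SIM. The place of KNAT6 depends on the length used as well. On SIM at 27 °C it had rank 2 by exon length and rank 5 by the length that includes introns.

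Other BELL genes, the further partners KNOX proteins could find in these explants, were mostly lower at 27 °C, where PNY was higher. Of 12 genes (11 BELL genes and KNATM, a KNOX-related gene without a homeodomain), 9 were tested, and BLH5, BLH11 and KNATM were too low. At 27 °C 1 was higher and 6 lower, after CIM and after SIM alike, beside 21.6% higher and 21% lower (CIM) and 20.7% and 22.9% (SIM) of all tested genes, with medians of -0.87 and -0.48 (-1.02 and -0.48 with genes at 0 set to their bound or left out). From 0 h to CIM 0 rose and 9 fell at 17 °C and 8 fell at 27 °C (edgeR), where 39.5% and 40.4% of all tested genes fell, with medians of -1.12 and -2.07 against -0.01 and 0.00 over all tested genes. The 9 at 17 °C include ATH1, whose fall rests on 6 counts at 0 h and 0 on CIM at 17 °C. From CIM to SIM 6 rose and 3 fell at each temperature, where 24.7% and 24.9% of all tested genes rose, with medians of 0.58 and 0.61. The 6 and the medians include ATH1, which had 0 and 2 counts on CIM at 17 and 27 °C. ATH1 was tested only because of SIM, where it is high, so its rise is description only.

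After CIM the 4 with the smallest p were all lower at 27 °C. BLH10 had -0.87 ± 0.09, BLH3 -0.62 ± 0.08, BEL1, which specifies ovule integument identity, -1.18 ± 0.15 and BLH2 -1.80 ± 0.20 log2 units (edgeR adjusted p = 5.12e-10, 3.81e-08, 6.15e-08 and 1.83e-07). After SIM BLH6, a partner of KNAT7 in secondary wall regulation, averaged 29.2 ± 2.02 CPM at 17 °C and 10.1 ± 2.63 at 27 °C (-1.53 ± 0.14; edgeR adjusted p = 6.04e-11). BLH10 had -0.48 ± 0.06 (edgeR adjusted p = 7.68e-08).

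BLH4 and BLH2, also called SAWTOOTH2 and SAWTOOTH1 and known for keeping KNAT1 out of leaf margins, had their highest means at 0 h and their lowest on SIM at 27 °C. BLH2 went from 121.5 ± 9.83 CPM at 0 h to 22.3 ± 4.72 and 6.43 ± 0.0422 (n = 2) on CIM at 17 and 27 °C. On SIM it had 2.55 ± 1.09 and 0.454 ± 0.394 CPM. BLH4 went from 30.9 ± 0.902 CPM to 15.2 ± 5.02 and 6.76 ± 1.67 on CIM and to 3.74 ± 0.298 and 0.227 ± 0.224 on SIM. On SIM BLH4 had 45 counts at 17 °C and 3 at 27 °C over the group, 16.3-fold lower at 27 °C with a 95% interval of 5.24 to 82.1 (edgeR adjusted p = 2.67e-06).

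ATH1, a BELL partner of STM in the vegetative meristem, was the gene of this list that was higher at 27 °C on SIM. It summed to 6 counts at 0 h, 0 and 2 on CIM at 17 and 27 °C, and 40 and 114 on SIM. On SIM it was 2.62-fold higher at 27 °C (1.81 to 3.86; edgeR adjusted p = 5.15e-05), and ATH1 averaged 3.32 ± 0.517 CPM at 17 °C, where STM was hardly detected. KNATM had 9, 0 and 5 counts in the 0 h libraries 1, 2 and 3 and no count elsewhere. These are the 2 libraries with seed maturation transcripts, whose part in the KNATM counts was not tested.

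**Figure D4:**
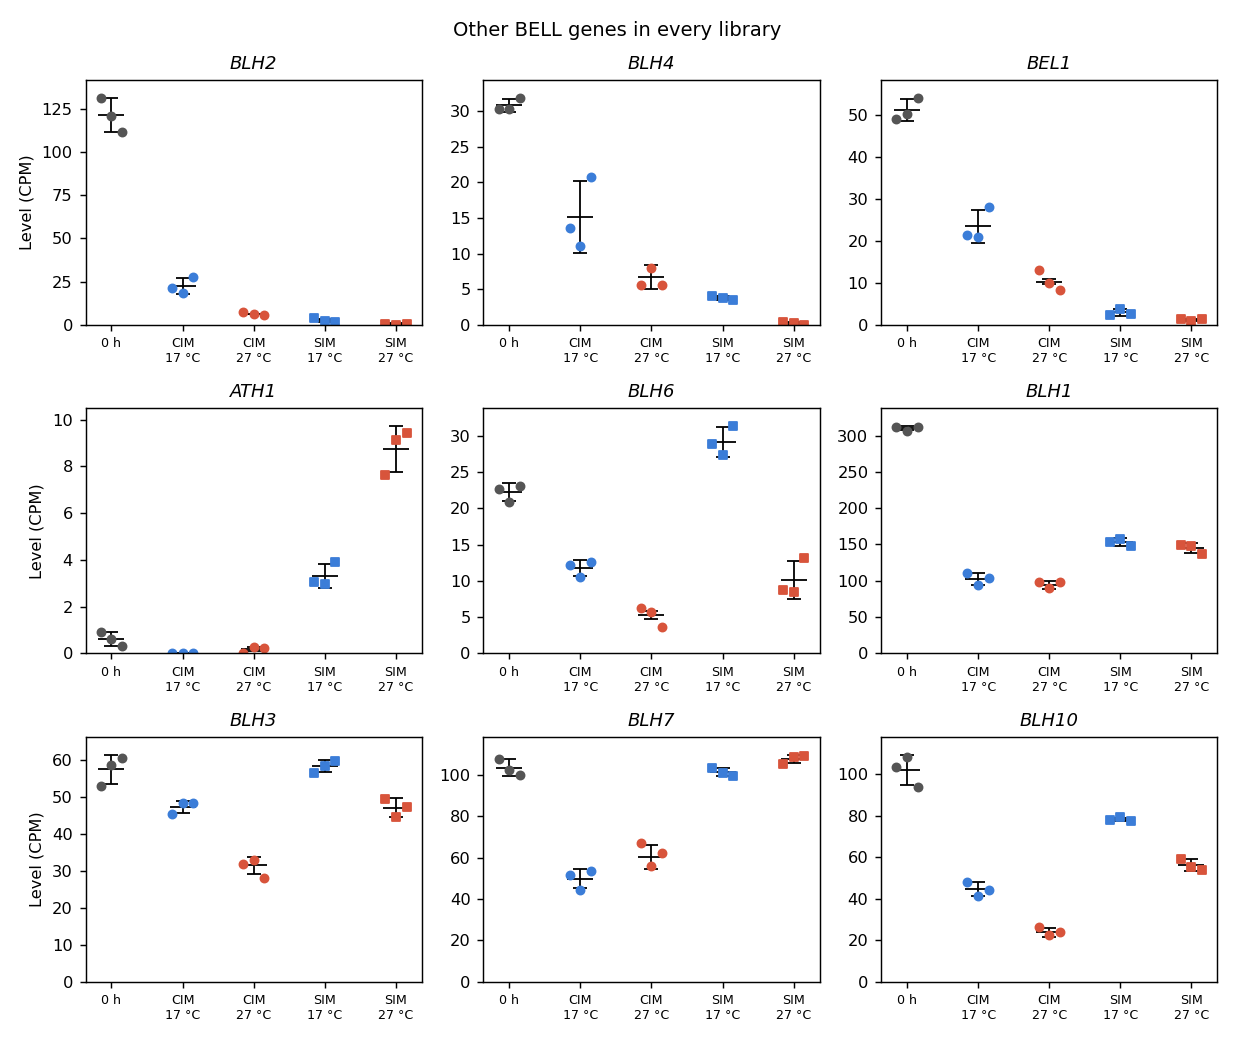
Level (CPM, y axis from 0, a scale of its own per gene) of the 9 other BELL genes that were tested, in every library, by group on the x axis. Points are libraries, and lines and bars are mean ± SD (n = 3, but n = 2 for CIM at 27 °C). BLH2, BLH4 and BEL1 are highest at 0 h and lowest on SIM at 27 °C, whereas ATH1 is highest there.

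Of 5 regulators of KNOX genes 3 were tested (AS2 and BOP1 were too low). AS1, the MYB protein that keeps class I KNOX genes off in leaf primordia, was higher at 27 °C by 0.77 ± 0.07 log2 units after CIM and by 0.30 ± 0.05 after SIM (edgeR adjusted p = 3.06e-11 and 1.48e-05). It averaged 40.1 and 67.5 CPM on CIM and 78.7 and 96.9 CPM on SIM at 17 and 27 °C, so AS1 and STM were both highest on SIM at 27 °C. LBD30, a boundary gene also called JAGGED LATERAL ORGANS, had -0.45 ± 0.16 after CIM and -0.35 ± 0.14 after SIM (edgeR adjusted p = 0.0211 and 0.0489). The call after SIM lay near the threshold, and the libraries of the temperatures overlapped there. Of 5 OVATE family genes, whose proteins bind KNOX and BELL proteins, 3 were tested. OFP1 was higher at 27 °C by 0.26 ± 0.07 after CIM and 0.17 ± 0.05 after SIM, and OFP2 had -0.33 ± 0.09 and -0.76 ± 0.10 (edgeR adjusted p = 0.00689, 0.0207, 0.00338 and 7.53e-08).

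Genes known as KNOX targets did not follow 1 course. GA2OX4, whose product inactivates gibberellin and which class I KNOX proteins are known to raise, averaged 0.789 CPM at 0 h, 21.9 and 47.7 on CIM at 17 and 27 °C, and 1.73 and 0.458 on SIM. It was higher at 27 °C on CIM by 1.14 ± 0.12 and lower on SIM (-1.86 ± 0.61), both called (edgeR adjusted p = 8.98e-10 and 0.0127). GA2OX2, of the same enzyme family, had 0.31 ± 0.11 on CIM, near the threshold, and -0.48 ± 0.10 on SIM (edgeR adjusted p = 0.0456 and 0.00175). GA20OX1, which makes gibberellin precursors and which KNOX proteins are known to repress, had 2.58 ± 0.29 on CIM (edgeR adjusted p = 9.26e-09) and was not called on SIM (-0.85 ± 0.35; 0.062). IPT7, a cytokinin synthesis gene that STM can activate, had 115 counts over the 0 h libraries and 0 in the 12 others, including those with STM. Over the list 3 of 4 were higher at 27 °C after CIM and 2 lower after SIM, where 21.6% and 22.9% of all tested genes were.

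As a description of likeness, the genes whose log2(CPM + 1) over the 15 libraries, which form 5 groups, was most correlated with that of each gene were listed from the 20704 tested, with a mean of at least 2 CPM in their highest group. For STM these were RLP28, MCT2 and LSH2 (Pearson r = 0.986, 0.984 and 0.982), all below 0.4 CPM in 4 groups and at 3.14, 3.83 and 19.0 CPM on SIM at 27 °C. For PNY the closest was HA9, a plasma membrane proton pump gene (r = 0.987), and for KNAT2 AT5G27930 and GOX2, a photorespiratory glycolate oxidase gene (0.970 and 0.943). KNAT7 was closest to AT2G28780, AGP7, an arabinogalactan protein gene, and UXS1, which makes UDP-xylose for xylan (0.991, 0.989 and 0.983). KNAT4 was closest to PSBO1, a photosystem II gene, and TPS1 (0.983 and 0.982), and KNAT3 to the expansin gene EXPA8 (0.972). KNAT5 was closest to WRKY4 (0.988), KNAT6 to AT4G03230 (0.989) and KNAT1 to AT4G31470 (0.992). A high r does not mean changes of like size. AT4G31470 averaged 8.05 CPM at 0 h and at most 0.0902 CPM in the other groups. KNAT1 averaged 188.9 CPM at 0 h and 116.9 to 123.1 CPM in the others. For KNAT5 and WRKY4 the sizes were nearer, with 96.7 and 137.5 CPM at 0 h and 49.5 and 56.0 CPM on SIM at 27 °C.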

How the data were processed

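RNA from 15 samples of hypocotyl explants was sequenced after library preparation with the KAPA Stranded mRNA-seq kit, per the labels' protocols. The deposited values are counts of reads per annotated gene, made by the authors and not scaled for depth; FastQC 0.11.7, Bowtie2 2.3.4.3, SAMtools 1.9, bedtools 2.26.0 and the TAIR10 build are named in the submitters' processing notes, without roles. Strand use, duplicate removal, multi-mapped reads and exon or whole-gene counting are not given in the sources used here. Bowtie2 does not split reads over introns. None of the 10 genes overlaps another gene of the table. Identifiers were named from RefSeq (32835 matched).

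All 15 libraries entered 1 edgeR 4.0.16 quasi-likelihood fit (R 4.3.3, robust, a mean per group, filterByExpr, TMM factors 0.907 to 1.04). The common dispersion was 9.77e-05. The fit was also run on simulated data with a larger dispersion and far fewer changed genes. That run therefore does not show the error rate for these data. There were 7 comparisons. Totals of 3427707 to 4446863 counts per library set the precision; ratios of low counts carry conditional binomial 95% intervals, with 3 counts as the floor over a group. The 0 counts of a library do not show absence. DESeq2 1.42.0, other filters and scalings, a replicate block, left-out libraries and a correction for positions counted once, added after the data were seen, were tried as alternatives.

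The 10 genes, the lists, the motifs, the promoter window and the promoters printed were chosen with earlier results of these data known. An earlier window, of 250 bases before and 50 after the table's start, gave other matches. Of each list, up to 4 called genes with the smallest p per comparison are named; WUS, ATH1 and BLH2 on SIM and KNATM were chosen after their values were seen. Of list names, 67 of 68 matched RefSeq.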

Additional observations from a re-analysis of the deposited data

Results flagged for a closer look

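In KNAT2 and KNAT3 the effect of temperature differed between the media by a test of the difference itself (edgeR interaction contrast, all 15 libraries). KNAT2 had a difference of 1.05 ± 0.23 log2 units between its effect on SIM and that on CIM (adjusted p = 0.000922, higher at 27 °C in 3 of 3 libraries on SIM), which stayed past the threshold under every alternative run. KNAT3 had -0.29 ± 0.08 (adjusted p = 0.0104, range 0.00183 to 0.121 over the alternatives). STM also passed, with a fitted difference of 9.11, but it was tested only because of SIM at 27 °C, where it is high, so this is given as a description. Its size depends on the prior count because 3 of the 4 groups had 3 counts or fewer.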

How the results depend on the processing

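Of 63 tests of single genes 37 were called, and 32 of these kept their call under every alternative. The counts in this section include the calls of STM, which was tested only because of SIM at 27 °C. Of 1013 alternative values 969 stayed on their side of the threshold, 31 lost a call, 13 gained one and 0 reversed among called values. The count called after CIM between temperatures, 5, was 3 with DESeq2 size factors, the DESeq2 Wald test, no filter on low counts, a filter of 1 CPM, the compared groups alone, libraries 1 and 3 of CIM at 27 °C summed, and both CIM libraries that stand apart left out, and 3 to 4 with each library left out. The calls lost are those of KNAT3 and KNAT6.

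Leaving out each library gave 5 to 6 called after SIM, 2 to 4 for the difference of effects, 7 to 8 and 7 for CIM against 0 h at 17 and 27 °C, and 4 and 5 for SIM against CIM. With at least 1 log2 unit required as well, 2, 3, 2, 3, 2 and 3 of the 9 genes remained in the order CIM and SIM between temperatures, CIM against 0 h at 17 and 27 °C, and SIM against CIM at 17 and 27 °C, of 2086, 2505, 6520, 7239, 3165 and 3174 genes in all; the difference of effects had 1516 genes. With 0 h library 2 alone, 7 of the 9 were called at each temperature.

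If each position had been counted once, abundant transcripts would read too low. After correction for this KNAT3 passed on SIM (-0.13, edgeR adjusted p = 0.0449), and KNAT1 fell by 0.80 on CIM at 17 °C. The highest value over all genes was 7.91 counts per exon base, and 24 genes lay above 0.95, the cap of the correction. Whether positions were counted once was not tested. The library numbers gave no sign of pairing the samples (equal numbers correlate at -0.219 to 0.103 over 30 pairs, others at -0.0996 to 0.187). Correlations this weak cannot show that the samples were unpaired. A replicate block changed 2 calls, both of PNY, on CIM at 17 °C against 0 h (0.0413) and in the difference of effects (0.0494). Of 100 rescaled levels 11 moved beyond their SD, by at most 9.29%. Depth limits PNF, and STM outside SIM at 27 °C.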
